A study of Homo sapiens with 18 samples.

Results

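The genes described here encode the protein arginine methyltransferase PRMT5, its binding partners WDR77, CLNS1A, RIOK1 and COPRS, the enzymes MAT2A, MAT2B and AHCY that make its methyl donor and clear its product, and MTAP of the methionine salvage pathway. They were listed by name, and the rule uses no measured value. Of the 9 genes, 8 had a row in the table of 20705 gene symbols. MTAP had none and was not analysed here, so its level in CHL1 and in A375 is not given, and a missing row does not show that a gene is silent.

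PRMT5 places symmetric dimethyl marks on arginines of histones and of spliceosomal Sm proteins, and it works as a complex with the propeller protein WDR77, together called the methylosome. Each methyl group comes from S-adenosylmethionine, which methionine adenosyltransferase builds from methionine and ATP, and each transfer leaves S-adenosylhomocysteine, which AHCY hydrolyses. Methylthioadenosine, a by-product of polyamine synthesis and an inhibitor of PRMT5, is removed by MTAP, the gene of which lies beside CDKN2A and is often deleted with it in melanoma.

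Poly-A RNA was sequenced from 2 established human melanoma lines, CHL1 (BRAF wild type, NRAS wild type, p53 mutant) and A375 (BRAF mutant, p53 wild type), in 18 libraries that form 9 groups of 2 replicates. CHL1 cells received DMSO for 72 hours (control), the CDK4/6 inhibitor palbociclib at 1 μM for 72 hours or 6 days (CDK4/6i), or the PRMT5 inhibitor GSK3326595 at 500 nM for 72 hours (PRMT5i). A375 cells received the same treatments and had a further DMSO control of 6 days, whereas CHL1 has the 72-hour control alone. CHL1 was cultured in DMEM and A375 in RPMI-1640, and 2 replicates of each condition were grown, with nothing further on how they were kept apart, so a p-value measures the spread between these samples.

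The libraries held 16213475 to 37424081 counts, with a median of 27906170.5. Of the melanocyte genes, MITF was at 63.8 to 144 CPM (counts over the TMM-scaled library size, on the scale of edgeR) in CHL1 and 81.3 to 211 CPM in A375. S100B was at 11.2 to 128 CPM in CHL1 and 3.57 to 108 CPM in A375. DCT was at 36.3 to 142 CPM in CHL1 and at most 1.79 CPM in A375, and PMEL, TYR and TYRP1 stayed at or below 5.02 CPM in every library. Of the genes listed for other cells, PTPRC was at 7.41 to 16.8 CPM in CHL1 and at most 0.588 CPM in A375. COL1A1 and PDGFRB reached 25 and 28.9 CPM in A375 and 1.72 and 9.71 CPM in CHL1. CD14, EPCAM and KRT5 stayed at or below 2.59 CPM. SOX10, MLANA, CD3E, CDH1, PECAM1 and CDH5 had no row. The column names divide the libraries into a set with all CHL1 and the 6-day A375 libraries and a set with the 72-hour A375 libraries, so the set and the time cannot be told apart in A375. In 4 libraries the level depended on the GC content of the transcript. The 10% of genes richest in GC stood against the 10% poorest at -2.49 and -1.98 on the log2 scale in the CHL1 PRMT5i replicates, and at -2.27 and -1.12 in the 6-day A375 control replicates, relative to the median of the line. The difference was between -0.17 and 0.50 in the other 14 libraries (13655 genes with a GC value). Most results that rest on those 4 libraries are given below with and without a correction for this trend.

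PRMT5 is the catalytic subunit of the complex. On GRCh37 it lies at chr14:23389734-23398617 on the minus strand, and 28.2% of its exon bases are shared with the antisense gene PRMT5-AS1. HTSeq was run with its default settings, which take reads as stranded, and no source used here says that the libraries mark strand, so reads from the shared bases cannot be assigned with certainty. PRMT5 had the lowest level per length of the 8 genes, a mean of 3.91 CPM per kb of transcript over the 18 libraries and 127 to 370 reads in each, which puts it at percentile 42.2 of 16332 genes with a known length.

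In CHL1, PRMT5 was at 9.46 and 7.91 CPM in the control replicates, 7.8 and 7.48 CPM after 72 hours of CDK4/6i, 7.13 and 7.11 CPM after 6 days, and 4.26 and 4.55 CPM with PRMT5i. In A375 it was at 11.7 and 13.9 CPM in the 72-hour control, 11 and 12.2 CPM after 72 hours of CDK4/6i, 15.4 and 20.2 CPM with PRMT5i, 4.48 and 7.14 CPM in the 6-day control, and 10.1 and 8.36 CPM after 6 days of CDK4/6i. The A375 PRMT5i libraries were the highest of all and lay above every other library, and the CHL1 PRMT5i libraries overlapped only the 6-day A375 control at the low end. The control and CDK4/6i groups of A375 at 72 hours overlapped each other, as did CHL1 control and A375 CDK4/6i of 6 days.

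WDR77, at chr1:111982512-111991878 on the minus strand, is the WD-repeat partner that holds PRMT5 substrates, and 28.4% of its exon bases are shared with neighbouring genes. It was at 41.2 and 41.1 CPM in the CHL1 control, 38.6 and 34.6 CPM after 72 hours of CDK4/6i, 34.3 and 33.3 CPM after 6 days, and 34.2 and 29 CPM with PRMT5i. In A375 it was at 31.6 and 36 CPM in the 72-hour control, 41.1 and 43 CPM with CDK4/6i, 42.1 and 52.6 CPM with PRMT5i, 16.3 and 21.7 CPM in the 6-day control, and 37.4 and 35.3 CPM after 6 days of CDK4/6i. The 6-day A375 control stood below all other groups, and both A375 treatments of 72 hours stood above their control without overlap.

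The promoters of PRMT5 and WDR77 are shown because these genes encode the 2 subunits of the core enzyme, and the promoter of AHCY because it holds the only E2F-like match among the 12 RefSeq promoters of the 9 genes. Each runs from 250 bases before to 50 bases after the start site, on GRCh38.p14, in the direction of transcription. The searched motifs were the E-box CACGTG, which reads the same on both strands and is bound by MYC and related factors, and TTTNNCGC on either strand. Capitals mark a match.
PRMT5 (chr14:22929327-22929626, minus strand): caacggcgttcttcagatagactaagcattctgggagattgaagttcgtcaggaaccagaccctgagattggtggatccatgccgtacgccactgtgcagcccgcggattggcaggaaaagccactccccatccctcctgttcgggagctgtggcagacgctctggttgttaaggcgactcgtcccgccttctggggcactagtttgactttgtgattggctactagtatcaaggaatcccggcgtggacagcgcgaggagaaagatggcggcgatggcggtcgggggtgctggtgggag
WDR77 (chr1:111449207-111449506, minus strand): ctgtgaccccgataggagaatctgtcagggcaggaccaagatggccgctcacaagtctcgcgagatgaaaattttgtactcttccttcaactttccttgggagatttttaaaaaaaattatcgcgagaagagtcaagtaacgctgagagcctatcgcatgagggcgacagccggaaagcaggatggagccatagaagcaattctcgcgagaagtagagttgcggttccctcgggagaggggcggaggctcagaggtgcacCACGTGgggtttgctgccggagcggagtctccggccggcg
AHCY (chr20:34311753-34312052, minus strand, the promoter numbered 3 of 3): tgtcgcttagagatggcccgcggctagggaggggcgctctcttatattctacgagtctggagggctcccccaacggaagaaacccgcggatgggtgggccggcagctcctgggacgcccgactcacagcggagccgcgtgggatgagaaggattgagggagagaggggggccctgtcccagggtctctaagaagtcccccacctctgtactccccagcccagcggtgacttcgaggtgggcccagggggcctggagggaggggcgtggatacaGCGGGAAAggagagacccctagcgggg
The E-box of WDR77 begins at base 11, counted from the start site as base 1, and the match of AHCY, written GCGGGAAA in this direction, begins at base 24. The PRMT5 window held neither motif. Of 35116 RefSeq promoters of this length, 7.26% held the E-box and 6.89% the E2F-like motif. A match is a string of letters and not a measured binding site.

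CLNS1A, also called pICln, is the adaptor that brings Sm proteins to PRMT5, and it lies at chr11:77225981-77348839. It was at 92.8 and 80.7 CPM in the CHL1 control, 70 and 72.6 CPM after 72 hours of CDK4/6i, 66.5 and 66.3 CPM after 6 days, and 173 and 146 CPM with PRMT5i. In A375, CLNS1A was at 155 and 173 CPM in the 72-hour control, 145 and 156 CPM with CDK4/6i, 174 and 194 CPM with PRMT5i, 212 and 159 CPM in the 6-day control, and 147 and 137 CPM after 6 days of CDK4/6i. The CHL1 control and CDK4/6i libraries lay below every A375 library, and only the CHL1 PRMT5i libraries reached the A375 range.

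RIOK1, an atypical kinase that competes with CLNS1A for PRMT5 and brings it nucleolin, lies at chr6:7390026-7418270. It varied the least of the 8 genes, from 31.1 to 65.6 CPM over all libraries. In CHL1 it was at 40.9 and 34.4 CPM in the control, 35.8 and 31.1 CPM after 72 hours of CDK4/6i, 32.9 and 31.4 CPM after 6 days, and 65.6 and 49.5 CPM with PRMT5i. In A375 it was at 32.2 and 39.2 CPM in the 72-hour control, 31.1 and 33.1 CPM with CDK4/6i, 42.1 and 54.4 CPM with PRMT5i, 42 and 36.6 CPM in the 6-day control, and 37.1 and 31.6 CPM after 6 days of CDK4/6i. In each line both PRMT5i libraries lay above both control libraries of 72 hours, and the other groups lay close together.

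COPRS, the nuclear partner that ties PRMT5 to histone H4, lies at chr17:30178890-30186310. It was at 46 and 39.2 CPM in the CHL1 control, 37 and 35.1 CPM after 72 hours of CDK4/6i, 37.5 and 42.7 CPM after 6 days, and 30.2 and 23.6 CPM with PRMT5i. In A375, COPRS was at 22.6 and 30.7 CPM in the 72-hour control, 29.4 and 31.8 CPM with CDK4/6i, 29.1 and 40.1 CPM with PRMT5i, 11.3 and 20.3 CPM in the 6-day control, and 32.8 and 28.5 CPM after 6 days of CDK4/6i. The CHL1 control lay above both A375 controls without overlap.

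MAT2A is the catalytic subunit of methionine adenosyltransferase outside the liver, at chr2:85766291-85772404, and 12.5% of its exon bases are shared with GGCX on the other strand. It had the highest level per length of the 8 genes, a mean of 95.2 CPM per kb, at percentile 98.1. In CHL1 it was at 255 and 237 CPM in the control, 241 and 232 CPM after 72 hours of CDK4/6i, 212 and 185 CPM after 6 days, and 232 and 163 CPM with PRMT5i. In A375 it was at 348 and 371 CPM in the 72-hour control, 341 and 367 CPM with CDK4/6i, 293 and 292 CPM with PRMT5i, 223 and 246 CPM in the 6-day control, and 328 and 261 CPM after 6 days of CDK4/6i. In each line the PRMT5i libraries lay below both control libraries of 72 hours, and the 72-hour A375 control lay above the CHL1 control without overlap.

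MAT2B, the regulatory subunit of the same enzyme, lies at chr5:162930120-162946564. In CHL1 it was at 81.2 and 76 CPM in the control, 83.5 and 91.9 CPM after 72 hours of CDK4/6i, 96.3 and 56.5 CPM after 6 days, and 146 and 175 CPM with PRMT5i. In A375 it was at 55.1 and 71.9 CPM in the 72-hour control, 58.9 CPM in both CDK4/6i libraries, 58.3 and 72.7 CPM with PRMT5i, 142 and 81.8 CPM in the 6-day control, and 65.2 and 52.6 CPM after 6 days of CDK4/6i. The A375 control and PRMT5i libraries of 72 hours overlapped almost completely. The 6-day CHL1 CDK4/6i replicates lay far apart, on either side of the CHL1 control.

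AHCY, at chr20:32868074-32899608, hydrolyses S-adenosylhomocysteine, which would otherwise inhibit methyltransferases. It was at 95.8 and 87.1 CPM in the CHL1 control, 95 and 86.8 CPM after 72 hours of CDK4/6i, 85.3 and 80.7 CPM after 6 days, and 28.7 and 44.9 CPM with PRMT5i. In A375, AHCY was at 108 and 124 CPM in the 72-hour control, 167 and 165 CPM with CDK4/6i, 120 and 136 CPM with PRMT5i, 40 and 65 CPM in the 6-day control, and 123 and 126 CPM after 6 days of CDK4/6i. AHCY had the widest range of the 8 genes, 5.82 between its highest and lowest library as a ratio, and the 4 libraries with the GC trend were its 4 lowest.

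**Figure D1:**
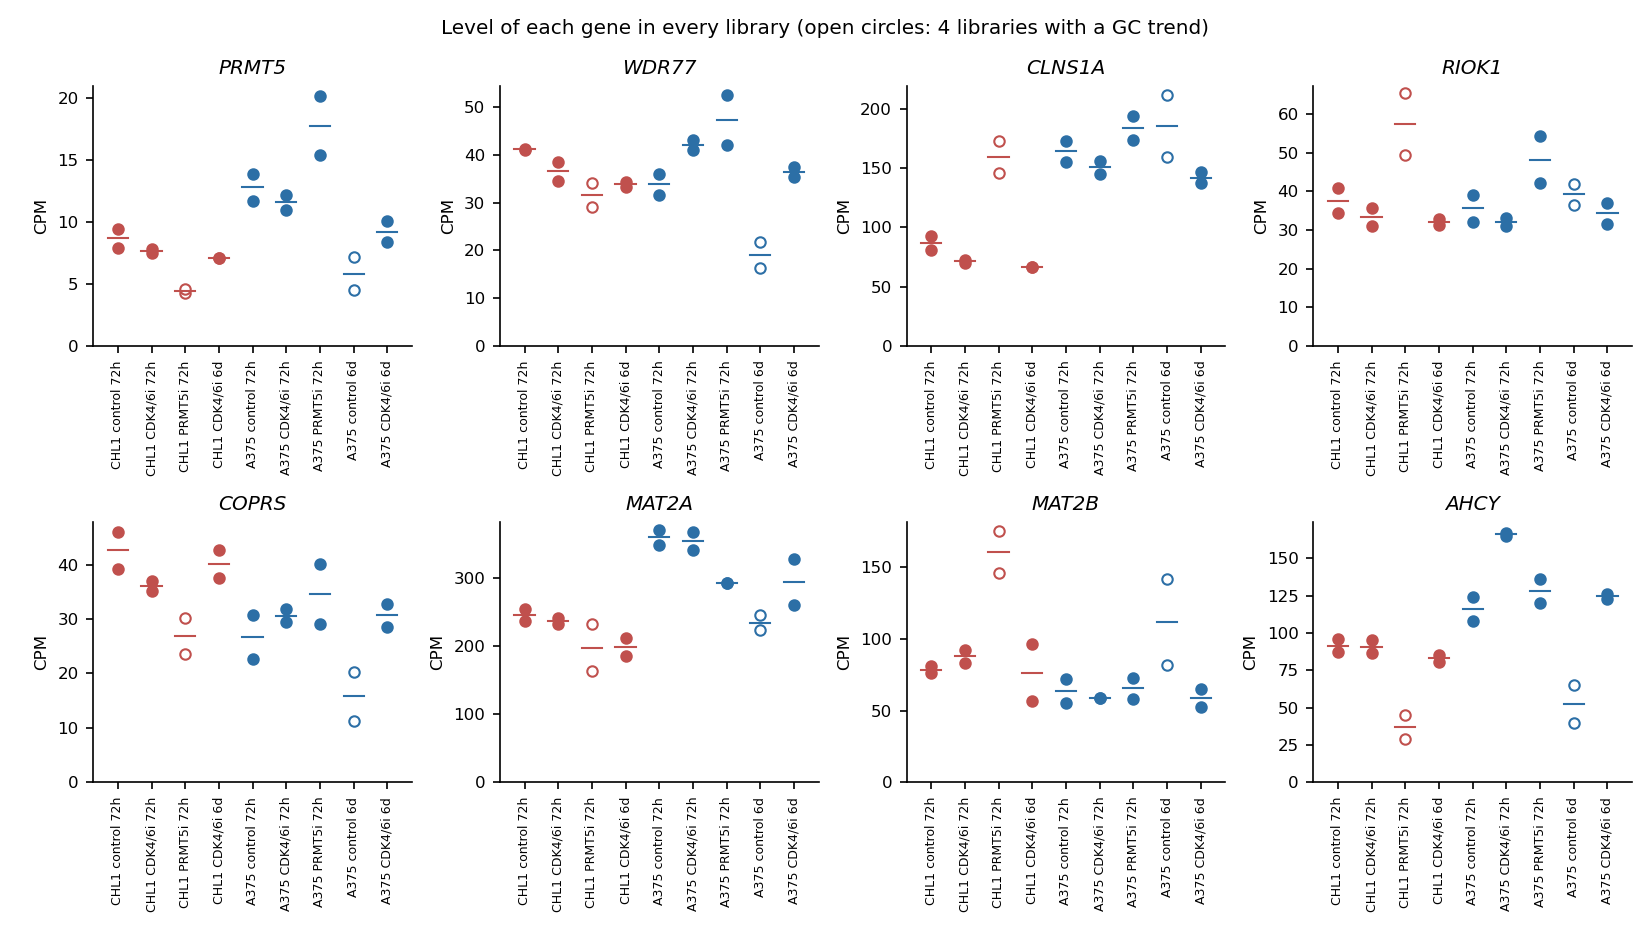
CPM of the 8 genes in each library (vertical axis, from 0) by group (horizontal axis), CHL1 in red and A375 in blue, with 2 circles per group and a line at their mean; open circles are the 4 libraries with the GC trend. AHCY is lowest in these 4 libraries, and PRMT5 is highest in A375 PRMT5i, at 15.4 and 20.2 CPM.

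Per kb of transcript, the mean levels after MAT2A were 45.1 CPM for CLNS1A, 41.8 for AHCY, 29.7 for COPRS, 19.2 for MAT2B, 15.6 for RIOK1 and 14.6 for WDR77. PRMT5 was thus measured at a lower level than each of its partners. After the mean of each line was removed, the log2 levels of PRMT5 and WDR77 had a Pearson r of 0.87 over the 18 libraries, and those of PRMT5 and CLNS1A an r of -0.37. The 5 genes with the pattern most like that of PRMT5 were SRP68 (r = 0.990), EFTUD2 (0.987), MRPS18B (0.981), POLDIP3 (0.981) and SF3A1 (0.979), among 12125 genes whose mean reached 5 CPM. Their transcripts hold 49.1% to 54.8% GC and that of PRMT5 51.9%, and the libraries, their depth and their GC trend are shared by all these genes.

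The comparison of PRMT5i with control in CHL1 asks how the cell answers inhibition of the enzyme at the level of its own complex. AHCY, PRMT5 and COPRS fell, with log2 fold changes of -1.30, -0.96 and -0.65, while MAT2B, CLNS1A and RIOK1 rose, with 1.05, 0.90 and 0.63. The standard errors were 0.20, 0.20, 0.18, 0.23, 0.15 and 0.18, and the adjusted p values from edgeR were 0.000309, 0.0016, 0.00827, 0.00196, 0.000522 and 0.0112 (2 replicates a group). WDR77 was at -0.36 ± 0.16 (SE, adjusted p = 0.075) and MAT2A at -0.30 ± 0.18 (adjusted p = 0.191). These 6 of 8 genes stand beside 54% of all genes called in this comparison, 26.4% higher and 27.6% lower. The median over the 8 genes was -0.33 and over all genes 0.00.

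The direction followed the GC content of the transcript. The genes that rose, MAT2B, CLNS1A and RIOK1, have transcripts of 37.6%, 40.1% and 42.5% GC, and the genes that fell, PRMT5, COPRS and AHCY, of 51.9%, 55% and 56.2%. After the GC correction 1 of the 8 genes was called, beside 33.2% of all 13655 genes. That gene was MAT2A, at -0.46 (adjusted p = 0.0344). PRMT5 was then at -0.38 (adjusted p = 0.101), AHCY at -0.30 (0.0626), CLNS1A at 0.08 (0.646) and RIOK1 at 0.08 (0.721), while COPRS turned to 0.31 (0.264) and MAT2B to -0.03 (0.918). RIOK1 also missed the threshold without PRMT5i replicate 1, at 0.42 (adjusted p = 0.0609), or control replicate 2, at 0.51 (0.114), and COPRS without control replicate 1, at -0.53 (0.091). Without PRMT5i replicate 1, WDR77 (-0.48, adjusted p = 0.025) and MAT2A (-0.57, 0.0172) were called lower as well.

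**Figure D2:**
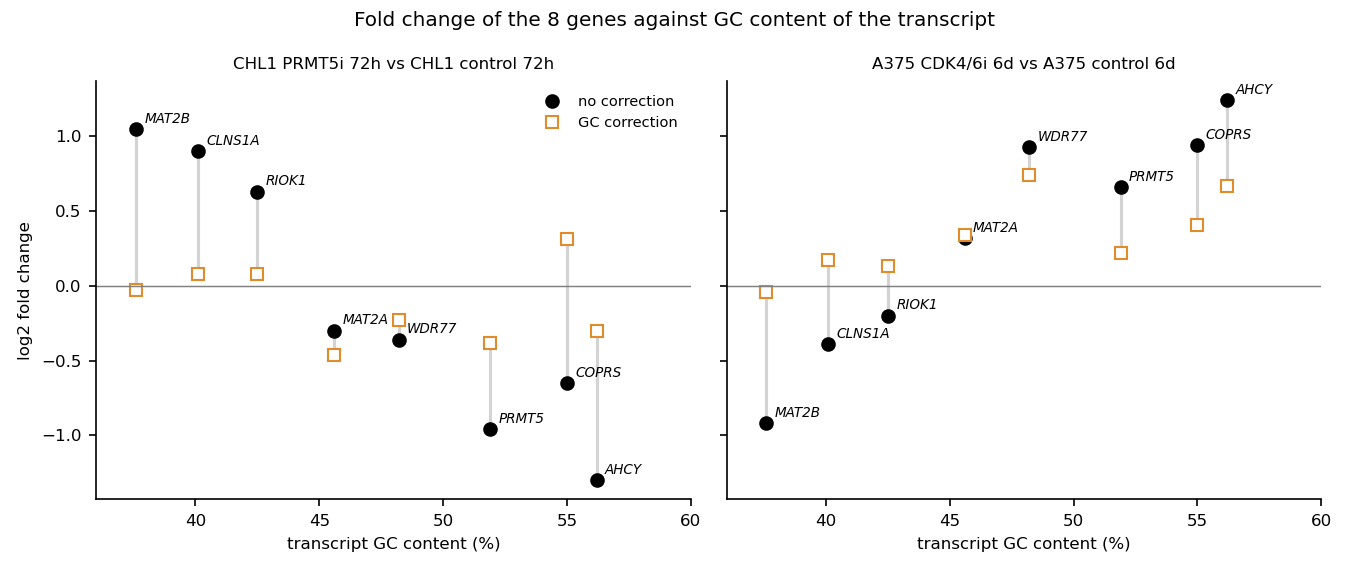
Log2 fold change of the 8 genes (vertical axis) against the GC content of the transcript in percent (horizontal axis), for PRMT5i in CHL1 and for 6 days of CDK4/6i in A375; black circles are the values without correction and open squares those with the GC correction. MAT2B and AHCY lie at opposite ends, at 1.05 and -1.30 on the left and at -0.92 and 1.24 on the right, and most squares lie nearer to 0.

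In A375 none of the 8 genes passed the threshold with PRMT5i. PRMT5 (0.46 ± 0.25, SE), WDR77 (0.47 ± 0.20), RIOK1 (0.42 ± 0.19) and COPRS (0.36 ± 0.26) were above the control and MAT2A (-0.31 ± 0.18) below it, and edgeR's adjusted p values were 0.401, 0.241, 0.293, 0.549 and 0.439. CLNS1A, AHCY and MAT2B were at 0.15, 0.13 and 0.03. The count of 0 stands beside 2.61% of all genes, 0.874% higher and 1.74% lower. At an unadjusted p below 0.05 the count was 2, WDR77 and RIOK1, and DESeq2 called 0. None of the 4 libraries with the GC trend enters this contrast, and PRMT5 was at 0.41, WDR77 at 0.45 and RIOK1 at 0.47 with the GC correction (adjusted p = 0.196, 0.0692 and 0.0762). The 10 A375 libraries share an estimate of the spread to which the 6-day control contributes. In an edgeR fit of the 6 libraries of 72 hours alone WDR77 was called (adjusted p = 0.0208), beside 3265 of 20705 genes. With the GC correction added, WDR77 (0.0169) and RIOK1 (0.0288) were called, beside 3155 of 13655 genes.

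Whether the lines differed in their response to PRMT5i was tested in a fit of all 18 libraries, as the change in CHL1 minus the change in A375. AHCY (-1.46 ± 0.30, SE), PRMT5 (-1.45 ± 0.33), COPRS (-1.04 ± 0.34) and WDR77 (-0.87 ± 0.25) were lower in CHL1 relative to A375, and MAT2B (0.99 ± 0.36) and CLNS1A (0.71 ± 0.23) higher. The adjusted p values from edgeR were 0.00119, 0.00214, 0.02, 0.00905, 0.0332 and 0.0197. These 6 of 8 genes stand beside 40.9% of all genes. With the GC correction the difference for PRMT5 (-0.78, adjusted p = 0.0331) and WDR77 (-0.68, 0.0153) remained past the threshold, beside 25.9% of all genes, and AHCY was at -0.34 (0.106). CLNS1A, COPRS and MAT2B were then at -0.18, 0.04 and -0.22, none of them called. AHCY and PRMT5 stayed past the threshold without any single library when no correction was made, whereas WDR77 missed it without A375 control replicate 1 (-0.72, adjusted p = 0.0675) or A375 PRMT5i replicate 2 (-0.70, 0.0564). CLNS1A, COPRS and MAT2B each missed it in several of the fits that leave out a single library, at adjusted p values of 0.0655 to 0.162.

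CDK4/6i moved none of the 8 genes past the threshold in CHL1. After 72 hours the log2 fold changes ran from -0.29 (CLNS1A) to 0.16 (MAT2B), and PRMT5 was at -0.19 ± 0.19 (SE). After 6 days they ran from -0.37 (CLNS1A, adjusted p = 0.125) to -0.02 (MAT2B), and PRMT5 was at -0.27 ± 0.20. The count of 0 in edgeR stands beside 4.98% of all genes at 72 hours (2.27% higher and 2.72% lower) and 16.6% at 6 days (8.83% higher and 7.8% lower), with 0 and 1 gene at an unadjusted p below 0.05, and DESeq2 also called 0 at both times. All 8 values at 6 days were below 0. The 2 times themselves differed for none of the 8 genes, beside 0.0145% of all genes, with the largest value for MAT2A (-0.24 ± 0.18, adjusted p = 0.815) none at an unadjusted p below 0.05 and 0 called by DESeq2. The 3 CHL1 comparisons share their 2 control libraries, and since that control is of 72 hours, time and treatment cannot be told apart in the 6-day comparison.

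In A375, CDK4/6i of 72 hours again called none of the 8 genes, beside 13.3% of all genes (6.22% higher and 7.11% lower). AHCY, at 0.46 ± 0.21 (SE), was the only gene at an unadjusted p below 0.05 (adjusted p = 0.178), and its treated libraries, at 167 and 165 CPM, lay well above the control at 108 and 124 CPM. By edgeR, AHCY was called with the GC correction (0.34, adjusted p = 0.0378), beside 29.3% of all genes. It was also called in a fit of the compared groups alone (0.00362), beside 6940 of 20705 genes. A fit of the libraries of 72 hours alone called it too (0.00524), beside 6424 of 20705, while DESeq2 called 0 of the 8 genes. PRMT5 was at -0.19 ± 0.26 and WDR77 at 0.26 ± 0.20. The response to 72 hours of CDK4/6i did not differ between the lines past the threshold for any of the 8 genes, beside 0.642% of all genes. The values for WDR77 and AHCY were -0.48 ± 0.25 and -0.52 ± 0.30 (adjusted p = 0.555 and 0.627), with no gene at an unadjusted p below 0.05 and 0 called by DESeq2.

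After 6 days of CDK4/6i in A375, AHCY (1.24 ± 0.22, SE), COPRS (0.94 ± 0.26), WDR77 (0.93 ± 0.20) and PRMT5 (0.66 ± 0.26) were higher than in the 6-day control and MAT2B (-0.92 ± 0.23) was lower. The adjusted p values from edgeR were 0.000415, 0.00908, 0.00162, 0.0477 and 0.00484. These 5 of 8 genes stand beside 43.1% of all genes, 21.8% higher and 21.3% lower, and the control of this comparison consists of 2 libraries with the GC trend. After the correction AHCY (0.67, adjusted p = 0.00101) and WDR77 (0.74, 0.00249) were called, beside 42.8% of all genes. COPRS (0.41, 0.1), PRMT5 (0.22, 0.373) and MAT2B (-0.04, 0.843) were not. Against the 72-hour control, which lies in the other library set, AHCY was at 0.06 (0.875), WDR77 at 0.06 (0.852) and PRMT5 at -0.51 (0.142), and none of the 8 genes was called. PRMT5 missed the threshold without 6-day control replicate 1 (0.34, adjusted p = 0.263) and without either CDK4/6i replicate (0.51 and 0.80, adjusted p = 0.236 and 0.0643), COPRS without that control replicate (0.56, 0.0582) or CDK4/6i replicate 1 (0.83, 0.0658), and MAT2B without CDK4/6i replicate 2 (-0.77, 0.0618). Without control replicate 2, CLNS1A (-0.55, adjusted p = 0.00353) and MAT2A (0.43, 0.0389) were called as well. DESeq2 gave 0.59 for PRMT5 (adjusted p = 0.0715).

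The response of A375 at 6 days minus that at 72 hours was past the threshold for none of the 8 genes, beside 1.08% of all genes. PRMT5 was at 0.86 ± 0.36 (SE), COPRS at 0.80 ± 0.37, AHCY at 0.78 ± 0.30, MAT2B at -0.75 ± 0.32 and WDR77 at 0.68 ± 0.28, all 5 at an unadjusted p below 0.05 and at adjusted p values of 0.18 to 0.241. Without 6-day control replicate 2 these 5 values were 1.26, 1.32, 1.21, -1.07 and 0.93. That fit rests on control replicate 1, which stood at -2.27 in the GC trend, against -1.12 for replicate 2. With the GC correction none of the 8 genes was called, beside 1.6% of all genes, and DESeq2 called 0.

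**Figure D3:**
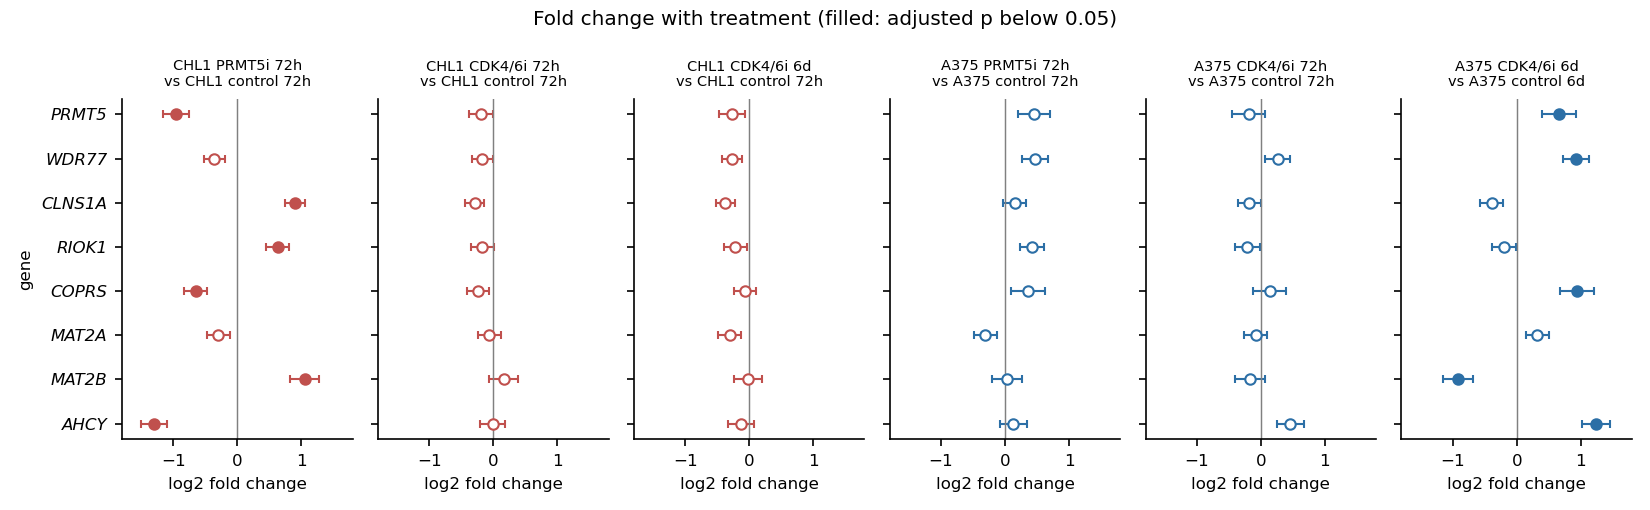
Log2 fold change with its standard error (horizontal axis) of the 8 genes (vertical axis) in the 6 treatment comparisons, CHL1 in red and A375 in blue; filled circles are genes with an adjusted p below 0.05. Filled circles appear in 2 panels, PRMT5i in CHL1 (6 genes) and 6 days of CDK4/6i in A375 (5 genes), each of which involves a group with the GC trend.

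Between the DMSO controls of the lines, the adaptors CLNS1A and COPRS differed against both A375 controls. CLNS1A was lower in the CHL1 control than in the 72-hour A375 control (-0.92 ± 0.17, SE, adjusted p = 0.000108) and than in the 6-day control (-1.10 ± 0.17, 1.56e-05), and COPRS was higher than in both (0.68 ± 0.24, 0.0216, and 1.43 ± 0.24, 5.66e-05). After GC correction CLNS1A was at -1.19 and -0.76 and COPRS at 0.89 and 1.04, all 4 values called. For PRMT5 the sign depended on the control, -0.56 ± 0.23 (adjusted p = 0.0452) against that of 72 hours and 0.58 ± 0.23 (0.0379) against that of 6 days, and with the correction -0.43 (0.0405) and 0.26 (0.199). WDR77 (1.12 ± 0.18, adjusted p = 2.53e-05) and AHCY (0.80 ± 0.21, 0.00329) were higher in CHL1 than in the 6-day control, also with the correction (0.93 and 0.39), and were at 0.28 and -0.34 against the 72-hour control (0.173 and 0.172), and MAT2A was lower against the 72-hour control (-0.55 ± 0.18, 0.0129) and at 0.07 against the other (0.753).

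In all, 4 of 8 genes were called against the 72-hour control, beside 58.9% of all genes, and 5 against the 6-day control, beside 61%. With the GC correction 4 were called against each control, beside 69.7% and 69.2% of all genes. The 72-hour A375 control belongs to the other library set than the CHL1 control, so there the line and the set cannot be told apart. The 6-day control belongs to the same set but carries the GC trend and another time. In every comparison of the lines, line and medium (DMEM for CHL1, RPMI-1640 for A375) cannot be told apart either. COPRS against the 72-hour control missed the threshold without CHL1 control replicate 1 (0.58, adjusted p = 0.115) or A375 control replicate 1 (0.44, 0.236), whereas CLNS1A stayed past it without any single library. PRMT5 missed it there without either CHL1 control replicate (-0.67 and -0.41, adjusted p = 0.0734 and 0.263) or A375 control replicate 2 (-0.40, 0.264), and against the 6-day control without CHL1 control replicate 1 (0.46, 0.201) or A375 control replicate 1 (0.28, 0.315). MAT2A missed it without either CHL1 control replicate (-0.57 and -0.47, adjusted p = 0.0561 and 0.11) or A375 control replicate 2 (-0.48, 0.0946), and AHCY missed it against the 6-day control without A375 control replicate 1 (0.49, 0.0518), while MAT2B was called there without replicate 2 (-0.83, 0.00699).

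Differences of over 4 on the log2 scale between the lines stood among the enzymes around the cycle. Of 16 listed genes of the methionine cycle and of transsulfuration, 12 had a row, and 5 were higher and 2 lower in CHL1 than in the 72-hour A375 control (median 0.30, all genes -0.02), beside the 58.9% of all genes called there. CTH, which makes cysteine from cystathionine, was at 161 and 171 CPM in the CHL1 control, at 8.35 and 8.36 CPM in the 72-hour A375 control and at 8.11 and 10.1 CPM in the 6-day control. CBS, which makes cystathionine from homocysteine, was at 141 and 159, 30.4 and 31.7, and 14.6 and 15.7 CPM in the same order. Neither gene overlapped between the lines, and the log2 differences were 4.31 ± 0.21 and 2.27 ± 0.25 (SE, adjusted p = 3.86e-12 and 2.79e-07) against the 72-hour control and 4.19 and 3.30 against the 6-day control. The values against the 6-day control were 4.30 and 2.84 with the GC correction. PEMT, which makes phosphatidylcholine with S-adenosylmethionine, was lower in CHL1 than in the 72-hour control (-1.32 ± 0.24, adjusted p = 0.000106), and AHCYL2, a relative of AHCY, was higher (1.15 ± 0.19, 4.77e-05). The 6-day control overlapped CHL1 for both, PEMT at 17.6 and 32.6 against 19 and 20.4 CPM, and AHCYL2 at 69.2 and 98.3 against 89.6 and 117 CPM. Against that control with the GC correction, PEMT was at -0.79 (adjusted p from edgeR = 2.65e-05) and AHCYL2 at 0.23 (0.218). BHMT, BHMT2, MAT1A and NNMT had no row and were not analysed here.

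Of the 10 listed polyamine genes, the pathway that yields methylthioadenosine, 3 were higher and 2 lower in CHL1 than in the 72-hour A375 control (median 0.22), beside the same 58.9% of all genes. ODC1, the first enzyme of the pathway, had 43224 and 49022 reads in the CHL1 control libraries, 804 and 1116 in the 72-hour A375 control and 542 and 784 in the 6-day control. In CPM this was 1490 and 1740, 38.8 and 54.5, and 16.3 and 24.5, a log2 difference of 5.11 ± 0.40 (SE, adjusted p = 2.89e-09) against the 72-hour control and of 6.31 ± 0.42 (3.41e-10) against the 6-day control. The value against the 6-day control was 6.14 with the GC correction. PAOX, a polyamine oxidase, was higher in CHL1 as well, by 3.73 ± 0.40 (adjusted p = 2.27e-07), from 6 and 7 reads in the A375 control. SMOX, which oxidises spermine, and SMS, which makes it, were lower in CHL1, at -3.29 ± 0.21 (adjusted p = 2.13e-10) and -1.56 ± 0.20 (2.16e-06).

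Past MTAP, the salvage pathway runs through MRI1, APIP, ENOPH1 and ADI1, all of which had a row. MRI1, the isomerase that acts on the product of MTAP, was at 13.4 CPM in both CHL1 control libraries, at 53.5 and 57.2 CPM in the 72-hour A375 control and at 18.5 and 30.4 CPM in the 6-day control. It was lower in CHL1 by the test against both, at -2.04 ± 0.23 (SE, adjusted p = 3.19e-07) and -0.87 ± 0.22 (0.00241), while ENOPH1 (0.96 and 0.44) and ADI1 (0.57 and 0.61) were higher against both. With the GC correction these 6 values were -1.87, -1.22, 0.77, 0.54, 0.40 and 0.65, all called. APIP was then at -0.24 (adjusted p from edgeR = 0.0988) and -0.63 (0.000292). Without the correction 2 of the 4 genes were higher and 1 lower against the 72-hour control, beside 58.9% of all genes. Against the 6-day control 2 were higher and 2 lower, beside 61%. The counts were the same with the correction, beside 69.7% and 69.2% of all genes.

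**Figure D4:**
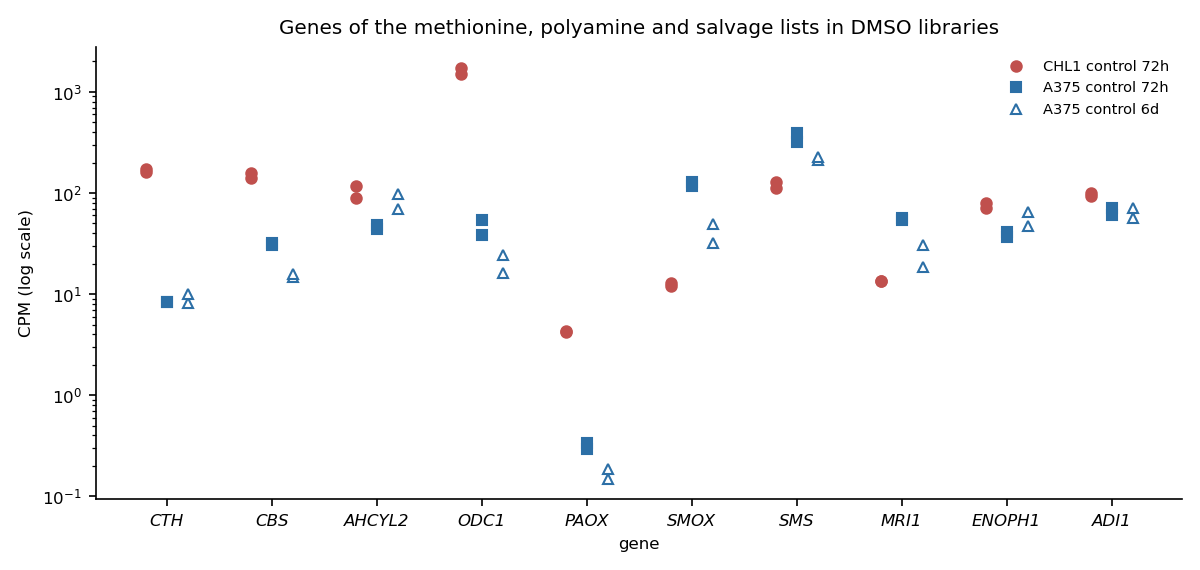
CPM (vertical axis, log scale) of 10 genes around the methionine cycle (horizontal axis) in the DMSO libraries, CHL1 as red circles, the 72-hour A375 control as blue squares and the 6-day A375 control as open triangles, with 2 symbols per group. ODC1, CTH, CBS and PAOX are higher in CHL1 than in all 4 A375 libraries, and SMOX, SMS and MRI1 are lower.

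MTAP itself lies at chr9:21802635-21937650 on GRCh37. Of 11 listed symbols around it, 7 had a row, among them PTPLAD2, the older symbol of HACD4, which was also listed. IFNE, CDKN2A and CDKN2B had no row and were not analysed here. CDKN2B-AS1, the antisense transcript of the locus, had 643 and 736 reads in the CHL1 control libraries, 0 and 3 in the 72-hour A375 control and 8 and 42 in the 6-day control. It was thus near 0 in A375 and at 22.2 and 26.1 CPM in the CHL1 control. KLHL9 and FOCAD, which flank the locus on the other side, were present in both lines, at 74.8 and 76 CPM and 103 and 109 CPM in the CHL1 control and at 83.8 and 95.8 CPM and 146 and 149 CPM in the 72-hour A375 control. DMRTA1 was at 6.1 and 6.25 CPM in the CHL1 control and 5.82 and 6.42 CPM in the 72-hour A375 control. ELAVL2 was at 15.2 and 18.2 against 14.9 and 16.2 CPM, and MLLT3 at 77.2 and 96.5 against 48.1 and 53.8 CPM. In the 6-day control DMRTA1 was at 34.7 and 102 CPM. Between the 72-hour controls 2 of the 7 genes were higher and 1 lower in CHL1, beside 58.9% of all genes. With the GC correction 2 were higher and 2 lower, beside 69.7%. With PRMT5i in CHL1, 6 of the 7 genes were higher and 0 lower, beside 54% of all genes called, and 1 was higher and 2 lower with the GC correction, beside 33.2%. With PRMT5i in A375 edgeR called none, beside 2.61%, and with the GC correction 1 was lower, MLLT3 (-0.51, adjusted p = 0.0285), beside 11%. Copy number was not measured. In these bulk samples fewer cells with a transcript and less of it per cell cannot be told apart.

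Among the treatments, PRMT5i in A375 changed 2 of the 12 methionine cycle genes, beside 2.61% of all genes, and with the GC correction 3 were higher and 1 lower, beside 11%. GNMT, which consumes S-adenosylmethionine to methylate glycine, rose from 24 and 28 reads to 61 and 75 (1.61 ± 0.32, SE, adjusted p = 0.0164), and CBS fell from 30.4 and 31.7 CPM to 17.1 and 17.2 CPM (-0.87 ± 0.19, 0.0212). Both changes were called with the GC correction (1.54 and -0.94), as were MTRR (0.39, adjusted p = 0.0474) and METTL16 (0.39, 0.0287). CDK4/6i of 72 hours in A375 gave 1.58 ± 0.32 for GNMT and -0.88 ± 0.18 for CBS against the same control libraries (0.00435 and 0.00523). In CHL1, PRMT5i put 4 of the 12 genes higher and 5 lower (median 0.04), beside 54% of all genes, and 1 and 2 with the GC correction, beside 33.2%. The 5 lower by edgeR included GAMT (-2.15), CBS (-2.05), GNMT (-1.94) and PEMT (-1.42). Both GAMT and CBS, at -0.98, were called with the correction (adjusted p = 0.00111 and 0.00639), and GNMT (-0.75) and PEMT (-0.07) were not.

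Of the same list, ADK and METTL16 were called with CDK4/6i. ADK, which removes the adenosine that AHCY releases, fell in A375 at 72 hours (-0.69 ± 0.21, SE, adjusted p = 0.0378) and 6 days (-1.20 ± 0.21, 0.000387) and in CHL1 at 6 days (-0.66 ± 0.17, 0.0226). With the GC correction all 3 values kept their sign and were called, at -0.52, -0.77 and -0.58. With PRMT5i in A375, ADK was at 91.8 and 99.4 CPM, against 127 and 149 CPM in the control. Its corrected change with PRMT5i was -0.49 in A375 (adjusted p from edgeR = 0.105) and 0.29 in CHL1 (0.162), neither called. METTL16, the methyltransferase that acts on MAT2A RNA, fell with 6 days of CDK4/6i in CHL1 (-0.65 ± 0.16, 0.0158), where MAT2A was at -0.30 ± 0.18 and not called. With the GC correction METTL16 was also lower with 72 hours of CDK4/6i in A375 (-0.36, adjusted p from edgeR = 0.0184), and MAT2A was at -0.01. With PRMT5i in A375 the corrected values were 0.39 for METTL16 and -0.29 for MAT2A. A link between the 2 genes was not tested. Of the 12 genes, CDK4/6i put 2 higher and 2 lower in A375 at 72 hours, beside 13.3% of all genes. With the GC correction these counts were 2 and 4, beside 29.3%. At 6 days 2 were higher and 1 lower, beside 43.1%, and 2 and 5 with the correction, beside 42.8%. In CHL1 edgeR called 0 at 72 hours, beside 4.98%, and 3 higher and 1 lower with the correction, beside 16%. At 6 days it called 1 higher and 2 lower, beside 16.6%, and 1 and 3 with the correction, beside 32.3%.

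SAT1, which acetylates spermidine and spermine for export or breakdown, rose from 8.45 and 10.4 CPM to 42.1 and 45.1 CPM with CDK4/6i of 72 hours in A375 (2.15 ± 0.24, SE, adjusted p = 4.49e-05). After 6 days it was at 64 and 77.8 CPM against 13.9 and 24.3 CPM in the control (1.90 ± 0.23, 2.86e-05), and at 2.17 with the GC correction. In CHL1 it rose at 6 days (1.04 ± 0.30, 0.0327), with replicates apart at 28.1 and 52.9 CPM, and the 72-hour response was lower in CHL1 than in A375 (difference of -2.13 ± 0.42, 0.0248). ODC1 fell in CHL1 at 6 days of CDK4/6i (-1.17 ± 0.37, 0.0485), with replicates at 352 and 1060 CPM, and was at -1.08 (0.0617) with the GC correction. SMS fell in CHL1 at 6 days (-0.67 ± 0.21, 0.0479) and in A375 at 72 hours (-0.63 ± 0.18, 0.0312).

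PRMT5i in CHL1 put 2 of the 10 polyamine genes higher and 5 lower (median -0.73), beside 54% of all genes. With the GC correction 0 were higher and 1 lower, beside 33.2%. None of the 4 genes with the largest changes, SRM (-1.57), OAZ1 (-1.12), AZIN1 (1.09) and SMOX (-1.06), was called with it, at -0.18, 0.16, 0.06 and 0.25. In A375 edgeR called none of the 10 with PRMT5i, beside 2.61% of all genes. With the GC correction 1 was higher, SAT1 (0.88, adjusted p = 0.0185), beside 11%. After 6 days of CDK4/6i in A375, 4 were higher and 1 lower (median 0.35, all genes 0.10), and 3 and 1 with the correction, beside 43.1% and 42.8% of all genes. Of the 4 salvage genes past MTAP, PRMT5i in CHL1 put APIP (1.16) and ENOPH1 (1.02) higher and MRI1 (-1.24) lower, beside 54% of all genes. With the GC correction these 3 were called, at 0.54, 0.57 and -0.50. ADI1 was then called lower too (-0.50, adjusted p from edgeR = 0.005), beside 33.2% of all genes. After 6 days of CDK4/6i in A375, ENOPH1 (-0.91) and APIP (-0.76) were lower and MRI1 (0.66) and ADI1 (0.55) higher, beside 43.1% of all genes. With the correction MRI1 was at 0.17 and not called, and 1 was higher and 2 lower, beside 42.8%.

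Of 15 listed genes of the SMN complex and the Sm and Sm-like proteins that PRMT5 methylates, 14 had a row and GEMIN7 had none. With PRMT5i in CHL1, 6 were higher and 5 lower (median 0.20), beside 26.4% and 27.6% of all genes. With the GC correction 3 were higher and 5 lower, beside 33.2% of all genes called. SMN1 and SMN2, the nearly identical genes of the SMN protein, were higher by 1.45 ± 0.20 and 1.58 ± 0.21 (SE, adjusted p = 0.000186 and 0.000153), and at 0.83 and 0.94 with the GC correction (0.00464 and 0.00244), and reads that match both copies make either value uncertain. LSM4 (-1.36) and GEMIN4 (-1.35) were lower, at -0.21 and -0.41 with the correction, of which the second was called. Also called lower with the correction were SNRPB (-0.87), GEMIN6 (-0.79), SNRPD3 (-0.66) and SNRPD1 (-0.59), and STRAP (0.59) was called higher. For PRMT5i in A375 edgeR called none of the 14 (median 0.25), beside 2.61% of all genes. With the GC correction 1 was higher, SMN1 (0.58, adjusted p = 0.0264), beside 11%. CDK4/6i lowered SNRPD1, an Sm protein of the spliceosome, in A375 at 72 hours (-0.63 ± 0.19, SE, adjusted p = 0.0355, and -0.44 with the correction, 0.0993) and in CHL1 at 6 days (-0.84 ± 0.19, 0.0126), and GEMIN2, the partner of SMN, in A375 at 72 hours (-0.83 ± 0.21, 0.0154). After 6 days in A375, SNRPD1 (-0.67), COIL (-0.58) and GEMIN2 (-0.57) were lower and GEMIN4 (0.67) was higher, and none of these 4 was called with the correction, at -0.15, -0.25, -0.20 and 0.11.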

How the data were processed

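RNA was sequenced by the authors as poly-A libraries (paired-end), aligned with HISAT2 and counted per gene with HTSeq (versions 2.0.4 and 0.11.2 in the submitters' processing notes). The deposited table is named as normalised, but its values are whole numbers with differing totals per library, so they were treated as read counts. CPM (counts over the TMM-scaled library size of all 18 libraries) and all tests were computed here from the counts as deposited. Genes were tested with edgeR 4.0.16 (TMM scaling, quasi-likelihood test, R 4.3.3) over 20705 symbols without a filter, with Benjamini-Hochberg adjustment and a threshold of 0.05. The 8 CHL1 and the 10 A375 libraries were fitted separately, and all 18 together for contrasts between lines. SE is the fold change divided by the root of its F statistic. The GC correction subtracts a loess curve (span 0.4) of level on transcript GC content, for the 13655 genes used, of 16332 symbols matched to GENCODE. The scripts were tested on simulated data. Alternatives were DESeq2 1.42.0, another scaling, a filter, a replicate block, other sample sets and leaving out each library. The genes and the lists around them were chosen with earlier results of these data known, and of each list at most 4 called genes with the largest changes and a mean of at least 1 CPM are named, except that 1 such gene is not reported here. Further genes named for a call under the GC correction were chosen after their values were seen. Likeness used log2(CPM + 1) and genes of at least 5 CPM.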

Additional observations from a re-analysis of the deposited data

Results flagged for a closer look

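The response to PRMT5i differed between CHL1 and A375 for 6 of the 8 genes by a test of the difference itself (edgeR, all 18 libraries), beside 40.9% of all genes and 25.9% with the GC correction. The change in CHL1 minus that in A375 was -1.46 for AHCY, -1.45 for PRMT5, -1.04 for COPRS, -0.87 for WDR77, 0.71 for CLNS1A and 0.99 for MAT2B on the log2 scale, with adjusted p values of 0.00119, 0.00214, 0.02, 0.00905, 0.0197 and 0.0332. The CHL1 side of each value comes from 2 libraries with the GC trend. With the GC correction PRMT5 (-0.78) and WDR77 (-0.68) were called and the other 4 genes were not, and the part of the library set in these differences was not tested.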

How the results depend on the processing

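Of 1184 values of the 8 genes under alternatives, 1074 kept their direction and side of the threshold, 62 lost and 39 gained a call, and 9 called values changed sign (72 values called under neither setting also did, by at most 0.51 on the log2 scale). For PRMT5i in CHL1 the count of called genes fell from 6 to 1 with the GC correction and to 1 with the replicate block and the correction. The called gene was MAT2A both times. COPRS (0.31 and 0.30) and MAT2B (-0.03 and -0.02) changed sign and were not called. For PRMT5i in A375 the count rose from 0 to 5 with the replicate block, 6 with block and GC correction, 1 with the 72-hour libraries alone and 2 with these and the GC correction, a setting chosen after seeing the data. For CDK4/6i of 72 hours in A375 it rose from 0 to 1 with the GC correction, the compared groups alone, the 72-hour libraries alone, or these with the correction, and to 2 with the block, with or without correction. For 6 days in A375 it went from 5 to 2 with the GC correction and to 0 against the 72-hour control, where PRMT5 was at -0.51. Against that control with the correction, a setting chosen after seeing the data, it was 1. The called gene was CLNS1A (-0.28, adjusted p from edgeR = 0.0491). PRMT5 (-0.46, 0.0686), WDR77 (0.07, 0.688) and AHCY (0.19, 0.173) were not called there. At an adjusted p of 0.01 the count was 1 in place of 4 for CHL1 against the 72-hour A375 control. For the line difference under PRMT5i it was 3 in place of 6. The GC correction took that count to 2, PRMT5 and WDR77, with CLNS1A (-0.18), COPRS (0.04) and MAT2B (-0.22) not called. The cause was not tested. Leaving out a library gave 5 to 7 called genes for PRMT5i in CHL1, 3 to 7 for 6 days in A375, 1 to 3 and 3 to 6 for CHL1 against the 72-hour and 6-day controls, 4 to 5 for the line difference under PRMT5i, 0 to 5 for 6 days minus 72 hours in A375, and 0 otherwise, with the lone sample of a group assumed to vary like the other groups. The block changed no other count. The labels do not say that replicate numbers pair samples, and deviations of same-numbered samples had correlations of -0.388 to 0.482 in CHL1 and 0.268 to 0.518 in A375 at 72 hours.

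Over all genes, the calls for PRMT5i went from 11176 to 4534 in CHL1 with the GC correction, and in A375 from 541 to 901 (DESeq2), 1496 (GC), 1861 (compared groups), 3265 (72-hour libraries), 3155 (these with GC), 6113 (block) and 5329 (block with GC). For CDK4/6i of 72 hours they went from 1032 to 1675, 2191, 4202 and 2386 in CHL1 (DESeq2, GC, compared groups, block with GC), and from 2761 to 6940, 6424, 5585, 8752 and 7279 in A375 (compared groups, 72-hour libraries, these with GC, block, block with GC). For 6 days in A375 they went from 8928 to 5848 (GC) and 5862 (compared groups). The line differences went from 8466 to 3542 (PRMT5i, GC) and from 133 to 358 (DESeq2) and 544 (GC) for CDK4/6i. The times differed for 3 genes in CHL1 (64 by DESeq2), and for 224 in A375 (1146 by DESeq2, 341 with median-of-ratios scaling). Leaving out 1 library gave 20 to 67 calls for PRMT5i in A375, 103 to 136 and 827 to 1042 for CDK4/6i of 72 hours in CHL1 and A375, 631 to 2583 against 3443 for 6 days in CHL1, 30 to 46 for the line difference under CDK4/6i, 0 to 51 between times in CHL1, and 56 to 7019 in A375, the last without 6-day control replicate 2. With 127 to 370 reads per library and 2 replicates, PRMT5 had the fewest reads of the 8 genes.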
